A study of Mus musculus with 18 samples.

Results

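Type 1 innate lymphoid cells (ILC1s) of the mouse spleen were compared between 2 genotypes in 6 bulk RNA-seq libraries, the spleen share of the 18 libraries in the series. The libraries were taken by their sample labels, all 6 were used, and they were fitted on their own over every expressed gene. The other libraries came from liver ILC1s and liver natural killer (NK) cells, and the 6 liver ILC1 libraries serve below as a comparison. Each library was made by SMART-seq, a method that amplifies full-length cDNA from very small samples, from 200 sorted cells of C57BL/6 mice aged 8 weeks. The cells had been gated as CD3-, NK1.1+, NKp46+, CD49a+, CD49b low and positive for the interleukin-7 receptor. The control group (3 libraries) carried Ncr1-Cre, and the RARa403 group (3 libraries) carried Ncr1-Cre together with RARa403 at the Rosa26 locus, so both groups express Cre recombinase. Because the Ncr1 promoter drives Cre, the allele is by design switched on in cells that make NKp46. The labels do not say how many animals gave a library or which libraries share an animal, so every p-value below measures the spread between these libraries, which may be technical in part.

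Retinoic acid, made from vitamin A, enters the nucleus and binds retinoic acid receptors (RARs), which sit on DNA as pairs with retinoid X receptors (RXRs). Without ligand the pair holds corepressors, and with ligand it recruits coactivators and its target genes are transcribed. RARa403 is a truncated RARα that acts as a dominant negative: it still pairs and binds DNA but does not activate transcription, and it blocks the other RARs in the same cell. ILC1s live in tissues, make interferon-γ and share the receptors NKp46 and NK1.1 with NK cells, the circulating killers of infected and tumour cells. The title of the series asks whether RAR activity is needed to maintain ILC1s.

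The 6 libraries held 5445189 to 8214734 counts each, and 15441 to 19211 genes had at least 1 count. Levels are given in CPM, which scales the counts of a library to a common total, and 3 counts stood for 0.365 to 0.551 CPM. The genotype was checked first. Gt(ROSA)26Sor, the noncoding transcript of the Rosa26 locus, had 1260, 437 and 152 counts in control libraries 1, 2 and 3, and 1 and 3 counts in RARa403 libraries 2 and 3. The library labelled RARa403 1 had 365, inside the control range. The processed pseudogene Gm13394, chosen after its values were seen, showed the reverse pattern, with 483 and 627 counts in RARa403 libraries 2 and 3, 28 to 64 in the controls and 64 in the library labelled RARa403 1. On both transcripts that library lay within the control range. The cause was not tested. It was also the library least like the rest, with a mean Pearson correlation across genes of 0.746 with the other 5 libraries, against 0.803 to 0.838 for the others. Liver ILC1s showed the same split, with Gt(ROSA)26Sor inside the control range of 104 to 903 counts in the library labelled RARa403 1 and at 1 and 0 counts in RARa403 libraries 2 and 3. Each result is therefore given with all 6 libraries as labelled, and many list medians, though not all, also with single libraries left out. The description codes of replicate 1 in both groups open with another number than those of replicates 2 and 3, and the labels do not say what this number stands for. Xist marked control library 3 (1404 counts) and RARa403 library 2 (925 counts), against at most 28 counts elsewhere, so each group held 1 library from female cells.

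The sorted identity was visible in the transcripts. Ncr1, which encodes NKp46 and drives Cre, and Klrb1c, which encodes NK1.1, lay at 2312 to 3115 CPM and at 987 to 1590 CPM. Tbx21, the T-box factor shared by ILC1s and NK cells, lay at 499 to 1013 CPM, and Il7r at 438 to 1194 CPM. The ILC1 markers Cxcr6, Itga1 (CD49a) and Zfp683 (Hobit) were all present, at 278 to 1389, 67.7 to 190 and 22.5 to 94.5 CPM. Genes of NK cells were present as well. Eomes, the factor that marks NK cells, ranged from 9.91 to 212 CPM and Itga2 (CD49b) from 11.9 to 57.0 CPM, and for both the extremes did not follow genotype. The gate limits differences in the genes of its own markers.

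No gene passed the main test. Of 12326 genes tested with edgeR's quasi-likelihood test and Benjamini-Hochberg adjustment, 0 (0%) had an adjusted p under 0.05, and every adjusted p was 0.9998. At an unadjusted p under 0.05 there were 378 genes (3.07%), 181 higher (1.47%) and 197 lower (1.6%) in RARa403 libraries, where evenly spread p-values would give 616.3. The 3 RARa403 libraries did not overlap the 3 controls for 1175 genes (9.53%), of which 547 were higher (4.44%) and 628 lower (5.09%). DESeq2, a second tool, called 28 genes (0.227%), 17 higher (0.138%) and 11 lower (0.0892%), and limma-voom called 0. The median log2 fold change over all genes was -0.01. No gene named below changed by the main test, and each log2 fold change is given with its standard error (SE). Per direction, the 12 genes with the smallest p are named among those whose groups did not overlap and whose mean reached 3 log2 CPM in 1 of the groups. Among the 9603 genes at that level 10.2% separated, 4.75% on the high and 5.46% on the low side. The p and the separation chose these 24 genes, so both are a description. DESeq2 called 22 of these 24, which had been chosen on the same counts, so this too is a description.

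**Figure D1:**
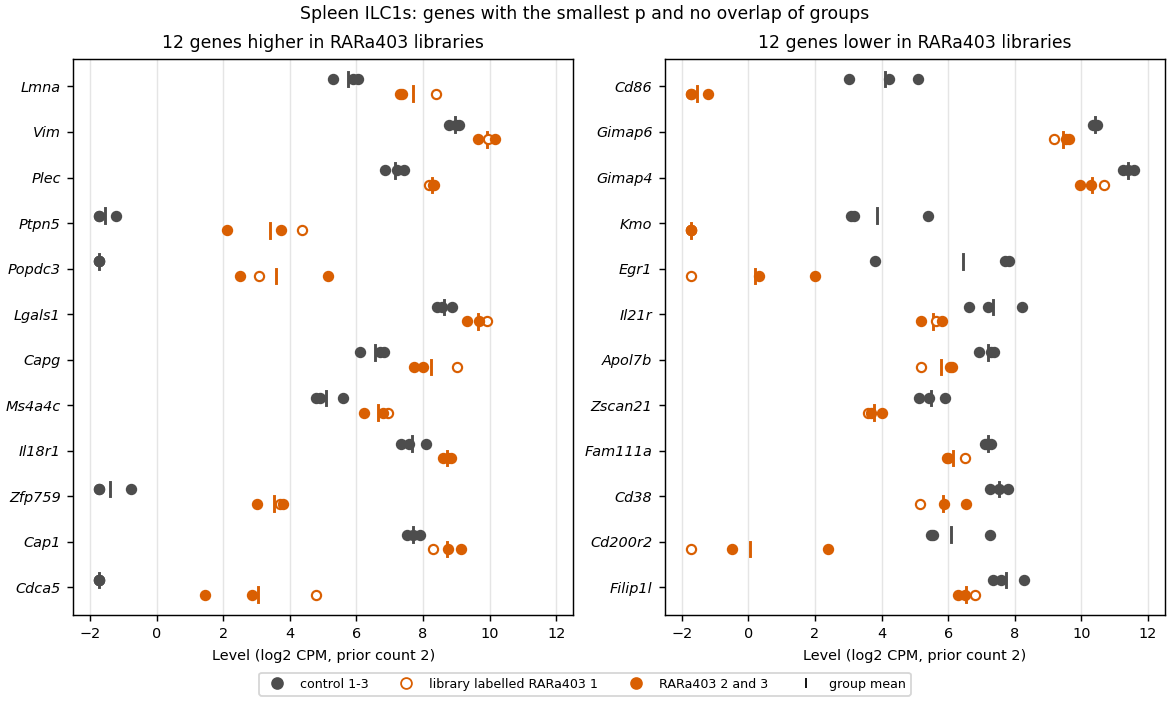
Levels of the 24 named genes in the 6 spleen ILC1 libraries, as log2 CPM with a prior count of 2 (horizontal axis), with 12 genes higher (left) and 12 lower (right) in RARa403 libraries. Each dot is a library and each vertical bar a group mean; the library labelled RARa403 1 is open. The 2 Gimap genes and Vim separate at high levels, while Popdc3, Cdca5, Kmo and Cd86 separate from libraries with no or 1 count.

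The Gimap genes stood out among the lower genes. They encode GTPases of lymphocytes that sit side by side on chromosome 6 and are known for lymphocyte survival. Gimap6 (ENSMUSG00000047867, mm10 chromosome 6, 48701582 to 48708225, minus strand, protein coding) lay at 10.48, 10.42 and 10.35 log2 CPM in control libraries 1, 2 and 3, and at 9.18, 9.55 and 9.62 in the RARa403 libraries. Its log2 fold change was -0.96 (SE 0.16). Gimap4 (ENSMUSG00000054435, mm10 chromosome 6, 48684549 to 48692060, plus strand, protein coding) lay at 11.57, 11.41 and 11.24 against 10.68, 10.30 and 9.97 log2 CPM. Its log2 fold change was -1.07 (SE 0.20), and in both genes the lowest control stood above the highest RARa403 library, the library labelled RARa403 1 included.

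The windows around the start sites of these 2 genes are printed because both genes lay lower together. They run from 100 bases before the start to 30 bases after it, 5′ to 3′ on the gene's strand, from RefSeq on GRCm38.p6. Capitals mark AGGTCA, the half-site that retinoic acid receptors and many other nuclear receptors bind.
Gimap4 chr6:48684478-48684607 (plus strand): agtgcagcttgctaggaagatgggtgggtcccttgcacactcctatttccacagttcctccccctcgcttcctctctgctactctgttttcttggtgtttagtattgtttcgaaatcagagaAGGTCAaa
Gimap6 chr6:48708215-48708344 (minus strand): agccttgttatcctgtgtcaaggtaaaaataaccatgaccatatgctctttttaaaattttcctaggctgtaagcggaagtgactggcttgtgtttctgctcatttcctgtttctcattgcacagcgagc
The Gimap4 window held 1 match on the gene's own strand, which began at base 23 after the start, and the Gimap6 window held 0. AGGTCA was searched on both strands of 300-base promoter windows (250 before to 50 after the start). It was found in 1 of the 9 windows of the 8 Gimap genes (11.1%), and in 6 of the 25 windows (24%) of the 19 named genes that matched the table (Apol7b, Capg, Cd200r2, Gimap4, Il21r and Lmna), against 16.3% of all 32851 windows. A pair of half-sites spaced by 2 or 5 bases (AGGTCANNAGGTCA and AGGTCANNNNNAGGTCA, both of which contain the half-site) was found in 0 windows of either set and in 3 windows each of all promoters. A match describes the letters of these windows and is not a bound site.

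The other 6 Gimap genes shared the direction. Gimap3 lay at 10.84, 10.48 and 10.37 log2 CPM in controls against 9.97, 9.99 and 9.82 (log2 fold change -0.65, SE 0.17), and Gimap5 at 7.48, 7.92 and 7.96 against 7.16, 7.16 and 7.23 (-0.62, SE 0.20). Gimap7 varied most, at 9.90, 8.62 and 8.35 against 8.12, 7.35 and 6.99 (-1.56, SE 0.46). Gimap1 and Gimap9 had log2 fold changes of -0.49 (SE 0.18) and -0.55 (SE 0.22). Gimap8 lay at 8.18, 8.17 and 8.15 against 6.77, 8.00 and 8.03 log2 CPM, so that the library labelled RARa403 1 gave most of its difference (-0.46, SE 0.32). All 8 genes were lower without overlap, where 5.09% of all genes were, and 7 of 8 had an unadjusted p under 0.05, where 1.6% of all genes were lower at that level. The list holds Gimap4 and Gimap6 and was chosen with earlier results of these data known, so these shares are a description. The median log2 fold change of the 8 genes was -0.64 with all libraries and -0.64 without the library labelled RARa403 1. Their summed level was 8146, 7166 and 6787 CPM in the controls and 4202, 4184 and 3774 CPM in the RARa403 libraries (exact two-sided permutation test, p = 0.1, the smallest that 3 against 3 libraries allow). This p was not adjusted over the 32 lists summed. The sums of effector cytokines and chemokines, of transcription factors and of dendritic cell markers, given below, reached the same p. T cells also express Gimap genes: the summed T cell markers were 1863 to 2532 CPM in controls and 1847 to 2204 CPM in RARa403 libraries, so the groups overlapped. Trbc1 and Trbc2, constant regions of the T cell receptor β chain, gave the larger part of these sums. Of the same list, Trac was lower without overlap, at 55.9, 91.5 and 58.8 CPM against 28.7, 36.6 and 35.9 CPM (scaled to library totals without TMM, as the sums are), and Bcl11b lay lower with overlap. The part of other cells in the Gimap levels was not tested. In bulk samples fewer cells of a type and less RNA per cell cannot be told apart.

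**Figure D2:**
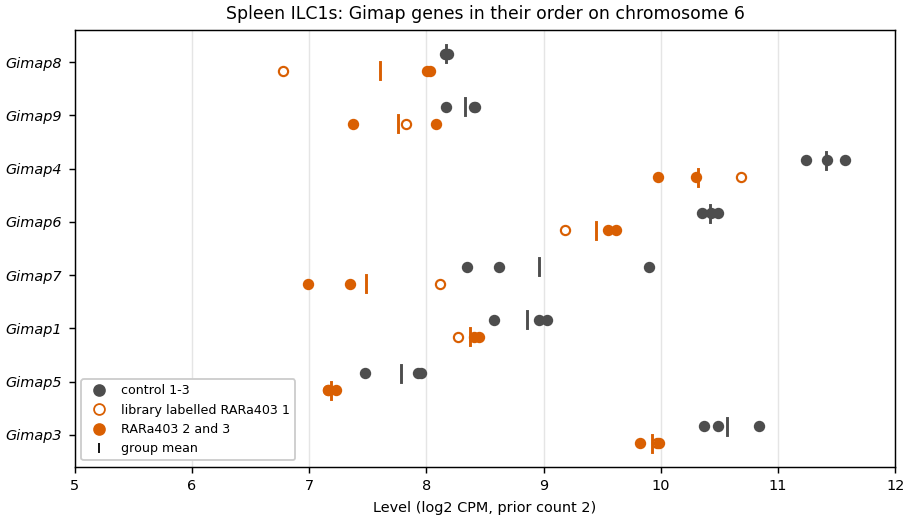
Levels of the 8 Gimap genes in the 6 spleen ILC1 libraries, as log2 CPM with a prior count of 2 (horizontal axis), ordered by position on chromosome 6. Each dot is a library, each vertical bar a group mean and the library labelled RARa403 1 is open; in every gene the 3 RARa403 libraries lie below the 3 controls.

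The receptors of retinoic acid were next in order. Rara lay at 5.27, 5.60 and 5.46 log2 CPM in controls and 5.88, 5.46 and 5.76 in RARa403 libraries (log2 fold change 0.26, SE 0.28), so its counts did not mark the genotype. No source used here says how reads of the inserted RARa403 were counted. Rarg, a second RAR, lay at 2.17, 4.05 and 4.22 against 4.29, 5.95 and 5.11 log2 CPM (1.57, SE 0.68), with the library labelled RARa403 1 just above the highest control. Rxra, the shared partner, lay at 4.12, 3.79 and 3.42 against 5.28, 4.60 and 4.97 (1.19, SE 0.45), and its groups did not overlap. Rarb had 1, 3 and 18 counts in controls and 24, 0 and 0 in RARa403 libraries and was too low to test. The coactivator genes Ncoa3 and Ncoa2 lay lower. Ncoa3 was at 7.02, 7.28 and 7.14 against 6.29, 6.57 and 5.97 log2 CPM (-0.85, SE 0.23), and Ncoa2 at 6.94, 6.93 and 6.92 against 6.15, 6.72 and 6.27 (-0.53, SE 0.23). Of 15 tested genes of receptors and their cofactors, 1 was higher and 2 lower at an unadjusted p under 0.05 (20%, where 3.07% of all genes were), and the median was -0.06 (-0.13 to 0.10 with single libraries left out). Another coactivator gene, Ncoa7, called by DESeq2 and chosen after its values were seen, lay at 5.80, 5.45 and 5.70 against 7.70, 8.48 and 6.06 log2 CPM.

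Targets of retinoic acid gave 1 gene among the 24. Cd38, an ectoenzyme that consumes NAD and a classic retinoic acid target in blood cells, lay at 7.52, 7.26 and 7.80 log2 CPM in controls and 5.15, 6.53 and 5.88 in RARa403 libraries (log2 fold change -1.59, SE 0.36). It was lowest in the library labelled RARa403 1, and without that library its log2 fold change was -1.30. Hic1, a transcriptional repressor that responds to retinoic acid in immune cells, lay at 5.81, 3.99 and 4.50 against 0.68, 3.56 and 3.59 log2 CPM (-1.93, SE 0.88), without overlap. Asb2, an adaptor of a ubiquitin ligase induced by retinoic acid, overlapped between the groups (-1.02, SE 0.70). Only 14 of 30 genes of retinoid targets and metabolism were expressed well enough to test, and 4 of the rest (Cyp26b1, Cyp26c1, Aldh1a3 and Crabp1) had 0 counts in all 6 libraries. Among the 14, 0 were higher and 1 was lower at an unadjusted p under 0.05, and the median was -0.11 with all libraries, -0.40 without RARa403 library 2 and 0.17 without the library labelled RARa403 1.

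Among genes of ILC1 identity 3 were lower at an unadjusted p under 0.05, although none passed the main test. Of 29 tested genes of the ILC1 list, 10 had positive and 19 negative fold changes, where 50.7% of all genes had negative ones, and the median was -0.18. It ranged from -0.35 without the library labelled RARa403 1 to 0.19 without control library 1, so that 1 library set its sign. The 3 genes with such a p were Cd200r2, Il21r and P2rx7 (10.3% of the list, where 3.07% of all genes had one). Cd200r2, a member of the CD200 receptor family, was at 153, 44.2 and 46.1 CPM in controls and at 0, 4.90 and 0.405 CPM in RARa403 libraries. Il21r, the receptor for interleukin-21, lay at 8.22, 6.62 and 7.21 log2 CPM against 5.64, 5.17 and 5.82 (log2 fold change -1.94, SE 0.43). P2rx7, an ATP-gated ion channel, lay at 6.82, 4.49 and 5.12 against 4.50, 3.41 and 3.20 log2 CPM (-2.03, SE 0.69), and here the library labelled RARa403 1 lay level with control library 2, so the groups overlapped. Without control library 1 its log2 fold change was -1.04. All 3 genes were highest in control library 1. Zfp683, Itga1 and Cxcr6 had log2 fold changes of -1.03 (SE 0.47), -0.48 (SE 0.37) and 0.31 (SE 0.64), and their groups overlapped.

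NK cell genes took no common direction. Of 28 tested genes 16 had positive and 12 negative fold changes, with a median of 0.09 (-0.28 without RARa403 library 3 to 0.30 without RARa403 library 2). Lgals1, which encodes galectin-1, was the only member among the 24, at 8.88, 8.58 and 8.40 log2 CPM against 9.93, 9.31 and 9.68 (log2 fold change 1.02, SE 0.22). Ccl5 is given with the chemokines below, and Ly6c2 had a log2 fold change of 0.84 (SE 0.43). Eomes and Itga2 had log2 fold changes of 0.20 (SE 0.90) and -0.02 (SE 0.63), and both changed sign when single libraries were left out.

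The receptors that NK cells and ILC1s use to sense other cells were described by family. Ncr1 separated by a small margin, at 11.21, 11.18 and 11.19 log2 CPM in controls and 11.61, 11.57 and 11.53 in RARa403 libraries (log2 fold change 0.38, SE 0.11). Its promoter drives Cre in both groups. Among the NKG2, CD94 and NKR-P1 receptors, 1 of 15 had an unadjusted p under 0.05: Klrb1f, an NKR-P1 receptor, at 9.05, 9.13 and 9.19 against 9.75, 9.78 and 9.46 log2 CPM (0.54, SE 0.16). Clec2i, a ligand of that family, and Klrb1c had log2 fold changes of -0.60 (SE 0.28) and -0.37 (SE 0.18). The Ly49 receptors, which recognise MHC class I, had 10 positive and 1 negative fold change among 11 tested genes with a median of 0.66, which was 0.29 without control library 1 and 0.29 without RARa403 library 3, and 0 had an unadjusted p under 0.05 and 0 separated the groups. Their summed level was 489, 1494 and 1036 CPM in controls and 1794, 1099 and 1997 CPM in RARa403 libraries, so the groups overlapped. Klra9, Klra5 and Klra10, the 3 Ly49 genes with the smallest p, had log2 fold changes of 0.81 (SE 0.49), 1.21 (SE 0.74) and 1.06 (SE 0.67). Klra and Gimap genes have similar neighbours, and how reads that fit several copies were counted is not given, which leaves the level of a single copy uncertain.

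Cytokine receptors had fold changes of both signs. Il18r1, a chain of the receptor for interleukin-18, which drives interferon-γ in these cells, lay at 7.34, 8.10 and 7.56 log2 CPM in controls and 8.75, 8.61 and 8.83 in RARa403 libraries (log2 fold change 1.03, SE 0.23). The 3 RARa403 libraries lay close together and above every control. Il4ra, the receptor for interleukin-4, lay at 8.11, 7.05 and 7.83 against 7.05, 7.25 and 6.49 (-0.77, SE 0.32), and the groups overlapped. Il7r, a marker of the gate, had a log2 fold change of 0.60 (SE 0.30). Of 30 tested genes of cytokine receptors and STAT signalling, 15 had positive and 15 negative fold changes, with a median of 0.01, and 1 was higher and 2 lower at an unadjusted p under 0.05 (10% of the list, where 3.07% of all genes were).

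Among secreted factors 2 chemokine genes lay lower. Ccl4, which attracts T cells and monocytes, was at 9.41, 7.65 and 8.58 log2 CPM in controls against 5.80, 5.10 and 7.59 in RARa403 libraries (log2 fold change -2.16, SE 0.70), with RARa403 library 3 just below control library 2. Ccl5, a chemokine of activated lymphocytes, was at 11.12, 10.95 and 10.68 against 10.13, 10.49 and 10.60 (-0.51, SE 0.18). Ccl3 lay at 6.30, 4.31 and 7.82 against 5.64, 5.22 and 5.09 (-1.43, SE 0.74), with overlap. Of 17 tested effector cytokines and chemokines 6 had positive and 11 negative fold changes, and the median was -0.44. It ranged from -0.70 without the library labelled RARa403 1 to 0.06 without control library 1, so that here too 1 library set its sign. The summed level of the list was 4851, 3328 and 3455 CPM in controls against 2674, 2779 and 2874 CPM in RARa403 libraries. These sums did not overlap (exact two-sided permutation test, p = 0.1). Ifng, the cytokine that defines the cell type, was at 290, 134 and 161 CPM in controls and 202, 95.6 and 135 CPM in RARa403 libraries, with overlap. The cytotoxic granule genes had signs of both kinds, with a median of 0.11 and 0 of 18 genes at an unadjusted p under 0.05. Gzma, Ctsc and Fasl, their 3 smallest p, had log2 fold changes of 0.63 (SE 0.41), 0.25 (SE 0.18) and -0.49 (SE 0.36).

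Transcription factors of ILCs and NK cells had a median of 0.09 over 31 tested genes, with 1 higher and 2 lower at an unadjusted p under 0.05 (9.68%, where 3.07% of all genes were), and the median was -0.02 without RARa403 library 3. Zeb1, a repressor of the zinc-finger E-box family, lay at 5.80, 6.08 and 6.11 log2 CPM against 6.66, 6.83 and 6.36 (log2 fold change 0.63, SE 0.24). Bcl11b, a factor of T cells and ILC2s, lay at 4.69, 5.76 and 6.03 against 4.34, 4.09 and 4.87, with overlap (-1.13, SE 0.45). Id3, an inhibitor of E proteins, lay at 4.65, 4.29 and 6.63 against 4.15, 3.95 and 2.12 (-1.96, SE 0.80), and control library 3 alone gave the high value. Tbx21 had a log2 fold change of -0.29 (SE 0.24). The summed level of the list was 9430, 9975 and 9282 CPM in controls against 10360, 10270 and 10570 CPM in RARa403 libraries. These sums did not overlap (exact two-sided permutation test, p = 0.1).

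Of the 12 higher genes, 8 were well measured in every library: Lmna, Vim, Plec, Capg, Cap1, Ms4a4c, and Lgals1 and Il18r1 above. Lmna, which encodes lamins of the nuclear envelope, lay at 5.90, 5.30 and 6.04 log2 CPM in controls and 8.39, 7.37 and 7.31 in RARa403 libraries (log2 fold change 2.00, SE 0.37). It was highest in the library labelled RARa403 1, and without that library the log2 fold change was 1.56. Vim, the intermediate filament vimentin, lay at 8.78, 9.08 and 8.98 against 9.96, 9.65 and 10.16 (0.99, SE 0.18). Plec, the linker plectin, lay at 6.85, 7.22 and 7.43 against 8.17, 8.29 and 8.32 (1.08, SE 0.20). In both, every RARa403 library was above every control by more than the spread within a group. Capg, an actin-capping protein, lay at 6.72, 6.11 and 6.82 against 9.02, 7.74 and 7.99 (1.78, SE 0.38), again highest in the library labelled RARa403 1. Cap1, which binds actin and adenylyl cyclase, lay at 7.70, 7.89 and 7.51 against 8.30, 8.74 and 9.14 (1.06, SE 0.25). Ms4a4c, a membrane protein of the MS4A family, lay at 4.91, 4.77 and 5.60 against 6.94, 6.79 and 6.23 (1.55, SE 0.33).

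The other 4 of the 12 higher genes rested on near-empty control libraries. Ptpn5, a tyrosine phosphatase known from the brain, was at 0.127, 0 and 0 CPM against 20.5, 4.05 and 13.1 CPM, with a ratio of pooled levels of 259 (exact 95% interval for counting error only, 46.0 to 10260). Zfp759, a zinc-finger protein, was at 0, 0.283 and 0 CPM against 12.7, 13.7 and 7.82 CPM, a ratio of 114 (31.1 to 944). Popdc3, a membrane protein of the Popeye domain family, was at 0 CPM in all 3 controls and at 8.13, 34.8 and 5.39 CPM in RARa403 libraries, at least 35.7-fold higher against a floor of 3 counts per control library and at least 14.98-fold higher without RARa403 library 2. Cdca5 (sororin), which holds sister chromatids together, was at 0 CPM in controls against 27.5, 6.92 and 2.43 CPM, at least 27.2-fold higher, or at least 10.4-fold without the library labelled RARa403 1. PCR copies are not independent molecules, so these ratios describe the libraries.

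The remaining lower genes of the 24 were of mixed function. Apol7b, an apolipoprotein L gene, lay at 6.94, 7.28 and 7.36 log2 CPM against 5.19, 6.12 and 6.06 (log2 fold change -1.36, SE 0.30). Filip1l, an inhibitor of cell migration, lay at 8.28, 7.34 and 7.59 against 6.80, 6.51 and 6.30 (-1.24, SE 0.29). Fam111a, a protease of DNA replication, lay at 7.17, 7.11 and 7.30 against 6.50, 6.00 and 5.97 (-1.02, SE 0.23). In these 3 genes the controls lay above every RARa403 library. Zscan21, a zinc-finger factor, lay at 5.91, 5.43 and 5.12 against 3.59, 4.02 and 3.68 (-1.77, SE 0.40). Egr1, an immediate early factor, ranged widely in controls, at 226, 13.6 and 208 CPM, and was at 0, 3.71 and 0.944 CPM in RARa403 libraries. The list of immediate early and stress genes as a whole had a median of -0.08 over 28 tested genes (-0.24 without the library labelled RARa403 1), and 2 were lower and 0 higher at an unadjusted p under 0.05 (7.14%, where 1.6% of all genes were lower). Nr4a1, the next of the list by p, was at 54.6, 62.7 and 157 CPM against 0, 11.8 and 25.5 CPM, and Jun at 121, 17.1 and 36.4 CPM against 29.6, 14.7 and 6.74 CPM.

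Cd86 and Kmo, known chiefly from antigen-presenting and myeloid cells, were also among the 12 lower genes. Cd86, a ligand that costimulates T cells, was at 18.4, 7.77 and 34.0 CPM in controls and at 0, 0 and 0.135 CPM in RARa403 libraries. Kmo, an enzyme of tryptophan breakdown, was at 8.64, 8.20 and 41.4 CPM in controls and at 0 CPM in all 3 RARa403 libraries, at least 41.6-fold lower against a floor of 3 counts per library, and at least 18.05-fold lower without control library 3. Both were highest in control library 3, the library with the most transcripts of other cells.

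Markers of other cells were summed in every library, because a sort of 200 cells can carry a few others. The summed B cell markers were 417, 1703 and 9151 CPM in controls and 684, 2396 and 1467 CPM in RARa403 libraries, so control library 3 stood far above the rest. Cd79a, a chain of the B cell receptor complex, had 0 counts in control library 1 and in the library labelled RARa403 1. Endothelial markers followed the same library, at 99.7, 108 and 623 CPM against 120, 131 and 48.1 CPM. Macrophage and monocyte markers were at 739, 1224 and 1512 CPM against 1462, 1095 and 1529 CPM. Ccr2 and Ly6c2, which NK cells and ILC1s also express, gave much of that sum, while Lyz2 (319 CPM against at most 9.58) and Csf1r (99.2 against at most 15.5) were again far higher in control library 3 than elsewhere. Dendritic cell markers were at 459, 573 and 837 CPM against 295, 401 and 444 CPM and gave the only sum of 12 without overlap (exact two-sided permutation test, p = 0.1, adjusted p = 0.72 over 12 lists). The median log2 fold changes were -1.67 for B cell, -0.90 for macrophage and -2.84 for endothelial markers, and without control library 3 they were 0.69, 0.15 and -0.15. The B cell genes Cd22, Cd79b and H2-Eb1 had log2 fold changes of -1.96 (SE 1.15), -1.65 (SE 1.02) and -1.89 (SE 1.10), and the macrophage gene Lyz2 of -5.09 (SE 2.45). All 4 changed sign without that library.

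**Figure D3:**
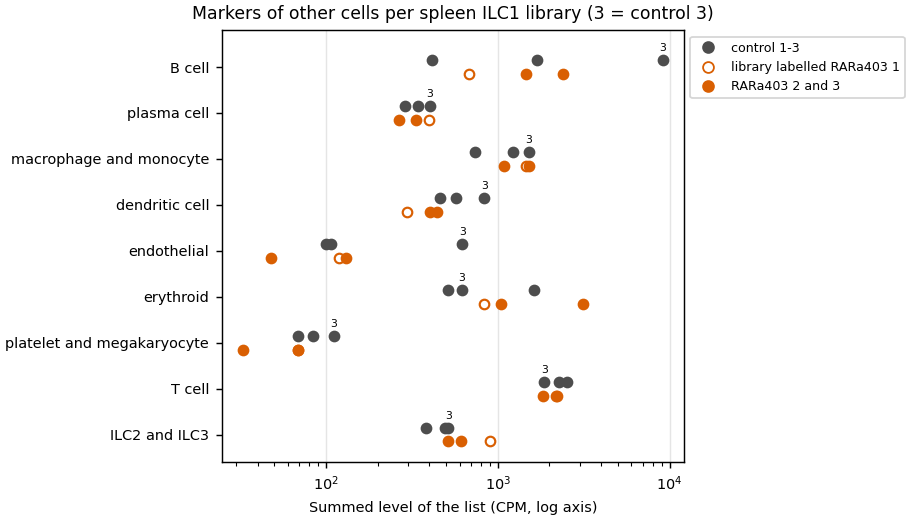
Summed level of marker genes of 9 other cell types in each spleen ILC1 library, in CPM on a log axis. Each dot is a library, the library labelled RARa403 1 is open and control library 3 carries a 3; that library lies at 9151 CPM for B cell and 623 CPM for endothelial markers, above every other library.

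Single markers showed the same unevenness. Kdr, a receptor of endothelial growth factor, was at 4.07, 4.66 and 67.3 CPM in controls and 0 CPM in all 3 RARa403 libraries, at least 54.4-fold lower with all libraries and at least 9.36-fold lower without control library 3, while Cdh5, which defines endothelium, had 10, 0 and 63 counts in controls and 12, 3 and 0 in RARa403 libraries. Eng and Pecam1, which other cells also express, had log2 fold changes of -2.86 (SE 1.47) and -0.38 (SE 0.42). Of the dendritic cell genes, Itgax (CD11c), which NK cells also express, lay at 8.09, 8.15 and 7.92 log2 CPM against 7.23, 7.29 and 7.92 (-0.54, SE 0.23). Tcf4 and Zbtb46 went opposite ways, with log2 fold changes of -0.69 (SE 0.27) and 1.07 (SE 0.42). Trac, the constant region of the T cell receptor α chain, lay at 5.87, 6.52 and 5.88 against 4.89, 5.21 and 5.17 (-1.04, SE 0.30), whereas the T cell gene Themis was at 0, 0 and 3.29 CPM against 17.7, 15.2 and 12.1 CPM. The T cell list had a median of -0.04 over 15 tested genes (-0.22 to 0.04 with single libraries left out).

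ILC2 and ILC3 markers lay higher chiefly in the library labelled RARa403 1 and in RARa403 library 2. All 9 tested genes had positive fold changes, with a median of 2.13, which was 0.28 without the library labelled RARa403 1. Il23r, the receptor for interleukin-23 of ILC3s, was at 0.890, 0 and 0 CPM in controls and at 28.5, 34.5 and 5.80 CPM in RARa403 libraries, a pooled ratio of 63.1 (30.4 to 158, counting error only), and DESeq2 called it. Il1r1, a receptor for interleukin-1, was at 4.58, 1.98 and 6.95 CPM against 32.5, 28.2 and 1.08 CPM. Il13 and Areg had 0 counts in all 6 libraries. The summed list was 380, 494 and 516 CPM against 899, 612 and 511 CPM, with overlap. Its part in the other results was not tested.

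Summed proliferation genes were by far highest in the library labelled RARa403 1, and RARa403 library 2 also lay above every control. Of 31 tested genes 30 had positive fold changes, where 49.3% of all genes did, with a median of 1.52, and 4 were higher at an unadjusted p under 0.05 (12.9%, where 1.47% of all genes were). Their summed level was 1210, 1252 and 1005 CPM in controls, 1584 and 1090 CPM in RARa403 libraries 2 and 3, and 3113 CPM in the library labelled RARa403 1. Without that library the median was 0.13. Mki67, a marker of cycling cells, was at 17.2, 8.05 and 6.04 CPM in controls against 190, 37.1 and 4.18 CPM. Spc25, a kinetochore subunit, was at 3.30, 3.11 and 5.12 CPM against 52.9, 21.4 and 4.99 CPM. Mcm4, a subunit of the replication helicase, was the only list member whose groups did not overlap, at 6.64, 7.01 and 6.73 against 7.21, 7.32 and 7.83 log2 CPM (0.68, SE 0.24).

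Interferon response genes had mostly negative fold changes. Of 28 tested genes 8 had positive and 20 negative fold changes, 3 were lower at an unadjusted p under 0.05 (10.7%, where 1.6% of all genes were) and 5 were lower without overlap (17.9%, where 5.09% of all genes were). Irf1, a transcription factor induced by interferon-γ, lay at 9.32, 9.14 and 9.08 log2 CPM against 8.65, 8.81 and 8.83 (-0.42, SE 0.16). Gbp2, a guanylate-binding protein, lay at 7.03, 6.85 and 6.76 against 6.31, 6.34 and 6.11 (-0.63, SE 0.21). Mx1, an antiviral GTPase, was at 26.3, 37.4 and 15.9 CPM against 2.44, 4.90 and 0 CPM. In all 3 genes every control lay above every RARa403 library. The median was -0.37, and it ranged from -0.63 without RARa403 library 2 to -0.19 without RARa403 library 3.

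No gene of the homing and survival lists had an unadjusted p under 0.05. Residency, homing and egress genes had a median of -0.02 over 25 tested genes (-0.17 without control library 1), and 2 lay higher and 1 lower without overlap (12%, where 9.53% of all genes did not overlap). Gpr183, Itgae and Ccr2 had their smallest p, with log2 fold changes of 0.53 (SE 0.23), 1.91 (SE 0.88) and 0.39 (SE 0.18). BCL2 family and survival genes had a median of -0.17 over 24 tested genes (-0.07 without the library labelled RARa403 1 and -0.002 without control library 1), and 2 lay lower without overlap (8.33%). Bcl2, the survival factor that interleukin-7 sustains, was at 9.87, 8.55 and 9.07 log2 CPM against 9.19, 9.31 and 8.77 (-0.16, SE 0.33). Bid, Bcl2l1 and Bcl2a1b had log2 fold changes of -0.61 (SE 0.37), 0.50 (SE 0.33) and -0.93 (SE 0.64). Glycolysis, cholesterol and fatty acid synthesis, TGF-β pathway and mitochondrial DNA transcripts had medians of -0.11, -0.25, -0.09 and -0.23 and 0 genes at an unadjusted p under 0.05. The TGF-β median was 0.18 without RARa403 library 3, and the mitochondrial median was 0.30 without control library 3.

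**Figure D4:**
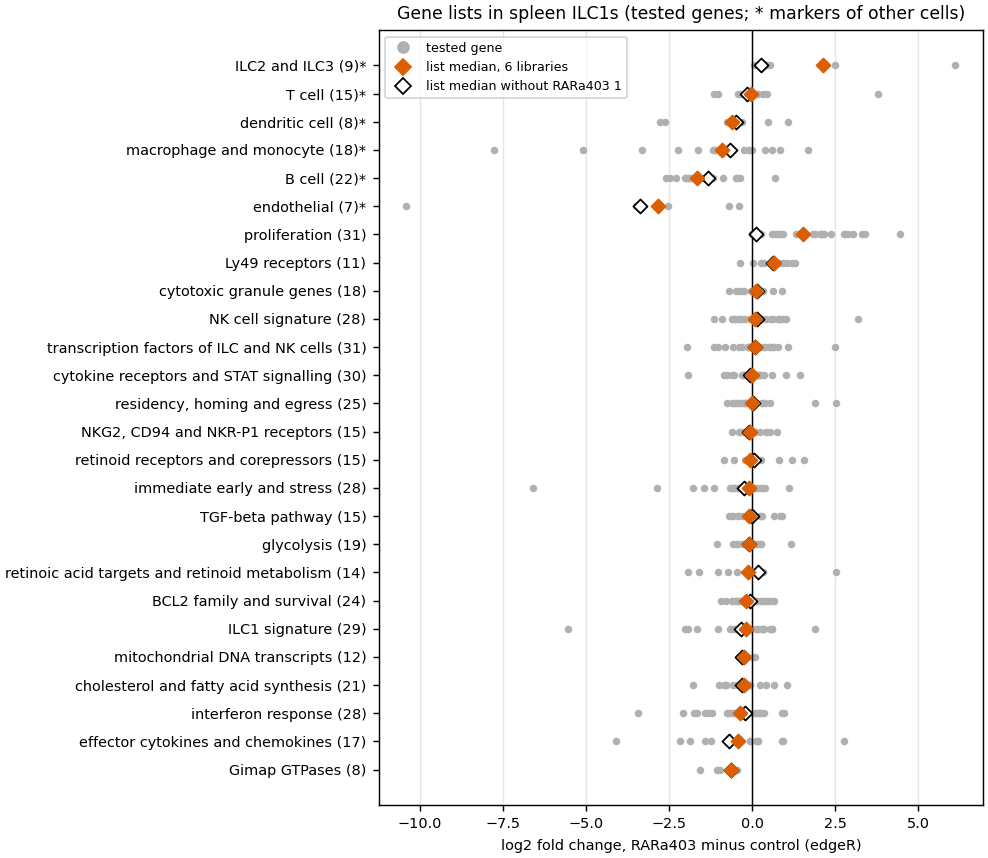
Log2 fold changes of the tested genes (grey dots) of 26 gene lists in spleen ILC1s, RARa403 minus control (horizontal axis), with the number of tested genes in brackets and markers of other cells starred. Filled diamonds are list medians over all 6 libraries and open diamonds medians without the library labelled RARa403 1; the proliferation median moved from 1.52 to 0.13, while the Gimap median stayed at -0.64.

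The library labelled RARa403 1 was then held out. Genes were ranked in the other 5 libraries by the same rule, and its own level was compared with the controls. For 18 of the 24 genes chosen in this way (75%) it lay on the same side of all 3 controls as RARa403 libraries 2 and 3, and for 0 on the opposite side. The 18 were 10 of the 12 higher and 8 of the 12 lower genes, and the other 6 lay within the control range. Over all 1858 genes at the same level whose groups did not overlap in the 5 libraries, with no condition on p, the share was 48.6%. Of these 1858 genes, 431 lay on the opposite side and 524 within the control range. The held-out library shared the side for all 8 Gimap genes and for Lmna, Vim, Plec, Capg, Lgals1 and Cap1, but not for Gt(ROSA)26Sor. All of these except Gt(ROSA)26Sor were already given above as separating the groups with this library included. Their side was therefore known beforehand and is a description. On Gt(ROSA)26Sor, the transcript of the targeted locus, that library lay within the control range.

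The same comparison was made in liver ILC1s. It used 12 libraries in 1 fit, without pairing of spleen and liver libraries. These are separate samples, and the labels do not say whether they share animals. Xist marked liver control library 3 (891 counts) and liver RARa403 library 2 (1314 counts), with 0 counts in the other liver libraries. The marked libraries have the same group and number as those marked in spleen. Sharing of animals was not tested, so the organs may not be independent samples. The difference between the spleen and liver effects passed for 0 of 13983 genes (0%) by edgeR's quasi-likelihood test and Benjamini-Hochberg adjustment, with 510 (3.65%) at an unadjusted p under 0.05, and DESeq2 called 16. Liver ILC1s alone had 0 genes (0%) past the threshold and 618 (4.42%) at an unadjusted p under 0.05. Of the 24 spleen genes 21 had the same sign in liver (87.5%), where 53.7% of all genes tested in both did, and 8 also separated the liver groups in that direction, where 5.76% of all genes did. Of the 8 Gimap genes all had the same sign in liver and 6 separated the liver groups. The 8 that separated were Plec, Capg, Il18r1 and Cap1 on the high side and Gimap6, Gimap4, Cd38 and Filip1l on the low side. The log2 fold change of Plec was 1.08 (SE 0.20) in spleen and 0.96 (SE 0.21) in liver, and that of Gimap6 was -0.96 (SE 0.16) and -0.79 (SE 0.19).

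**Figure D5:**
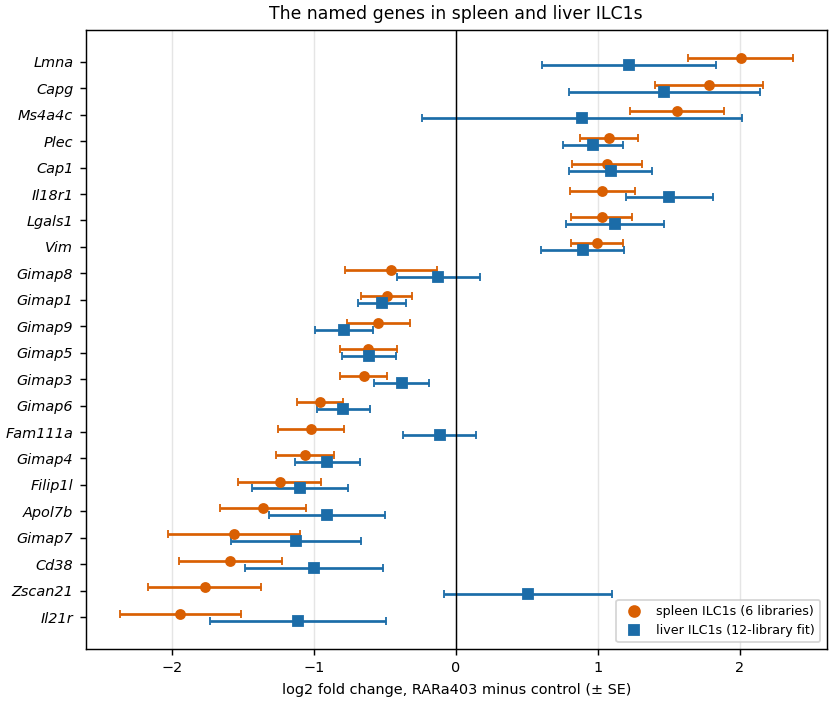
Log2 fold changes, RARa403 minus control (horizontal axis), with standard errors as bars, in spleen ILC1s (circles, 6-library fit) and liver ILC1s (squares, 12-library fit) for 22 genes, the named genes with a log2 fold change of less than 4 in size and the other Gimap genes. The 8 Gimap genes lie below 0 in both organs, and Zscan21 lies at -1.77 in spleen and 0.51 in liver.

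Of the 24 genes, 8 had an unadjusted p under 0.05 for the difference between the organs, where 3.65% of all genes had one. They were Popdc3, Cdca5, Cd86, Kmo, Egr1, Zscan21, Fam111a and Cd200r2. The first 4 had a spleen group at or near 0 counts. The 24 genes were chosen on the same spleen libraries, which favours such a p, so this count is a description. Zscan21 had a log2 fold change of -1.77 (SE 0.40) in spleen and 0.51 (SE 0.59) in liver, and Fam111a of -1.02 (SE 0.23) and -0.12 (SE 0.26). Over all genes, the 5 with the smallest p of a more positive spleen effect were Spc25, Tmco3, Klhl4, Tipin and Cdc20, of which Spc25, Tipin and Cdc20 act in cell division or DNA replication. Spc25 had a log2 fold change of 2.78 (SE 0.71) in spleen and -2.20 (SE 0.68) in liver (adjusted p = 1 for the difference by edgeR's quasi-likelihood test), and it was highest in the library labelled RARa403 1 among spleen samples. Tipin, which protects replication forks, had 0.95 (SE 0.30) and -0.83 (SE 0.30), and its spleen groups did not overlap in these values: 4.91, 4.96 and 4.29 against 5.51, 5.88 and 5.68 log2 CPM. The 5 of a more negative spleen effect were Ercc4, Slc25a12, Setbp1, Dmrta1 and Ftsj3. Ercc4, a DNA repair nuclease subunit, lay at 6.18, 6.63 and 6.43 against 5.60, 5.50 and 5.60 log2 CPM in spleen and at 5.94, 6.17 and 5.63 against 6.30, 6.16 and 6.70 in liver. Slc25a12, a mitochondrial carrier of aspartate and glutamate, had log2 fold changes of -0.87 (SE 0.22) and 0.38 (SE 0.22). Ftsj3, a factor of ribosome assembly, had -0.98 (SE 0.24) and 0.17 (SE 0.23). Setbp1 was near 0 in spleen RARa403 libraries, and Dmrta1 had 0 counts in the 3 liver controls, so no fold is given for them. By edgeR none of these differences passed the adjustment, while DESeq2's adjusted p for the difference was 3.5e-09 for Cdca5, 0.0019 for Spc25, 0.03 for Dmrta1, 0.043 for Klhl4 and 0.047 for Popdc3. For Cdca5, Popdc3 and Dmrta1 at least 1 group had 0 counts in all 3 libraries. DESeq2's log2 differences for them, 24.09, 13.96 and -8.12, are therefore not measured folds.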

How the data were processed

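RNA of 200 sorted cells per library was profiled. The deposited values are whole-number gene counts. They came, per the submitters' processing notes, from fastp 0.23.0 (trimming), HISAT2 2.1.0 (alignment, genome build mm10) and featureCounts from Subread 1.6.5 (counting). Not given in the sources used here are the annotation release, strand setting and treatment of multiply aligned reads, so overlapping, antisense and near-identical genes are uncertain. Of 46078 genes 45229 matched a symbol, and the other 849 held 0.0544% of the counts. Coordinates are from GENCODE vM21 on the same build, promoter sequences from RefSeq on GRCm38.p6.

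The 6 spleen ILC1 libraries were scaled by TMM, filtered by filterByExpr (minimum count 10, 12326 genes left) and fitted with a mean per genotype by edgeR 4.0.16 in R 4.3.3, with Benjamini-Hochberg adjustment over all genes and a threshold of 0.05. The common biological coefficient of variation was 0.675. The difference from liver ILC1s was an interaction contrast over 12 libraries. Log2 CPM levels have a prior count of 2, and CPM of single genes use TMM-scaled library sizes, whereas summed levels of lists and the level of 3 counts use unscaled library totals. Alternatives were DESeq2 1.42.0, limma-voom 3.58.1 with quality weights, RLE scaling, no filter, more libraries in the fit, a replicate block, the opening code number as a term, replicates 2 and 3 alone, a fold threshold and each library left out. Steps were tested on simulated data.

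Named genes followed a rule: Rara, Rarb, Rarg, Rxra, Ncr1, Klrb1c, Itga1, Itga2, Il7r, Eomes, Tbx21, Zfp683, Cxcr6, Bcl2 and Gt(ROSA)26Sor always; the 12 genes per direction with the smallest p at a mean of 3 log2 CPM or more without overlap or a predicted name; up to 3 genes per list with the smallest p; and 5 genes per direction for the interaction. Other genes are given as cell markers or to describe a sort. The members, the 32 lists (578 genes, 4 entries unmatched) and the tests were chosen with earlier results of these data known.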

Additional observations from a re-analysis of the deposited data

How the results depend on the processing

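The count of 0 genes past the threshold held under RLE scaling, limma-voom, all 18 libraries, the 12 ILC1 libraries, the code number as a term, replicates 2 and 3 only, a fold threshold and each library left out in turn (0 to 0), and with all 18 libraries without 1 outlying liver NK library, an alternative chosen after seeing the data. With no filter on low counts 118 of 27826 genes passed (50 higher, 68 lower), and DESeq2 called 28. For the difference between spleen and liver, no filter gave 92 genes and DESeq2 gave 16, and the other alternatives gave 0. The cause was not tested. The replicate block called 0 genes, with 415 at an unadjusted p under 0.05 against 378. That count was 599 with the code number as a term, 617 with replicates 2 and 3 only, 616 by limma-voom, 654 with 12 libraries, 830 with all 18 libraries without the outlying one and 1370 with no filter; the other alternatives gave 385 to 560. Deviations of same-numbered libraries from their group means had correlations of 0.194, 0.0628 and 0.00555. Libraries 2 and 3 share the opening code number, and crosswise between the groups they had 0.117 and 0.124. Between libraries of unlike code numbers the correlations were -0.156 to -0.0875. The replicate number thus did not single out pairs, while the signs followed the code number. Deviations within a group sum to 0, so these values depend on each other.

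Of 96 genes followed over up to 11 alternatives, 88 kept their direction. Many of the 96 were chosen by p or separation in these same libraries, which favours a kept direction. This count is therefore a description, and it was not made over all genes. With replicates 2 and 3 only, the log2 fold change was 0.23 for Bcl2, -0.088 for Eomes and 0.043 for Itga2, each of the other sign than in the report. With single libraries left out it ranged from -0.41 to 0.28 for Bcl2 (positive without control library 1), from -0.35 to 1.30 for Cxcr6 (negative without control library 2 or the library labelled RARa403 1), from -0.40 to 1.57 for Eomes (negative without control library 1 or 3 or RARa403 library 3) and from -0.53 to 0.40 for Itga2 (positive without control library 2 or 3 or the library labelled RARa403 1). Leaving out control library 3 set the upper ends of Cd22 (-2.52 to 0.36), Cd79b (-2.22 to 0.52), H2-Eb1 (-2.45 to 0.03) and Lyz2 (-12.53 to 0.15). The cause was not tested. Depth limits statements on transcripts below 0.365 to 0.551 CPM, the level of 3 counts.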
